A study of Homo sapiens with 12 samples.

Results

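The genes described here are 10 that encode parts of the AP-1 transcription factor or are transcribed within minutes of a stimulus: FOS, FOSL1, FOSL2, JUN, JUNB, JUND, EGR1, IER3, DUSP1 and MYC. They were chosen by gene symbol, matched to the Ensembl identifiers of the count table, and are 10 of the 58735 genes in it. All 10 passed the filter on low counts, which kept 16891 genes. Poly(A) RNA of ES2 cells, a human ovarian cancer line, was sequenced in 4 conditions with 3 replicates each. All libraries came from FDX2-iKO ES2 cells, which lack endogenous FDX2, a mitochondrial ferredoxin required for the assembly of iron-sulfur clusters, and carry an FDX2-HA transgene that resists genome editing and is switched on by doxycycline (Doxy). Clones of these cells were isolated by limiting dilution, and the study used a single clone unless it stated otherwise. The labels do not name the clone sequenced. Cells given Doxy (+Doxy) are FDX2-proficient and cells without it (wo Doxy) are FDX2-deficient. The 20% O2 cultures were kept for 6 days with or without Doxy, whereas the 3% O2 cultures had 4 days at 20% O2 followed by 3 days at 3% O2, 7 days in all, so that the oxygen comparisons also differ by a day of culture.

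AP-1 is a pair of basic leucine zipper proteins, usually a Jun protein bound to a Fos protein. FOS, FOSL1 (FRA1) and FOSL2 (FRA2) belong to the Fos family and need a partner, while JUN, JUNB and JUND belong to the Jun family and can also pair with themselves. Growth factors, cytokines and stress act through the MAP kinases ERK, JNK and p38 to switch on these genes together with EGR1, a zinc finger transcription factor, IER3, a stress-responsive regulator of survival, MYC, a basic helix-loop-helix factor that drives growth, and DUSP1, a nuclear phosphatase that removes the activating phosphates from MAP kinases.

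Some entry points of these signals are short sequence elements before the start of transcription. Such elements, along with the E-box and the TATA box, were searched for in the 250 bases before the RefSeq start. This was done for the 7 genes with an entry in the promoter table used here (all but FOSL1, IER3 and MYC). Both strands were searched for the cyclic AMP response element TGACGTCA, the E-box CACGTG, the TATA box TATAAA and the CArG box, the core of the serum response element, and the matches shown do not overlap. TGACGTCA was found in DUSP1 and JUND and in 1.65% of the 35116 promoters of the table, and the E-box was found in DUSP1 and in 6.34% of promoters. EGR1 held 2 CArG boxes, an element in 1.16% of promoters. DUSP1, FOS and JUNB held a TATA box, as did 10.7% of promoters. The AP-1 site TGANTCA, in 6.57% of promoters, was in none of the 7 windows. Below, DUSP1 is shown as the member with the largest response, EGR1 for its CArG boxes and JUND as the other member with the cyclic AMP response element. The sequences are from RefSeq on GRCh38.p14 and end on the base before the start. Capitals mark these elements.
DUSP1, chr5:172771196-172771445, minus strand: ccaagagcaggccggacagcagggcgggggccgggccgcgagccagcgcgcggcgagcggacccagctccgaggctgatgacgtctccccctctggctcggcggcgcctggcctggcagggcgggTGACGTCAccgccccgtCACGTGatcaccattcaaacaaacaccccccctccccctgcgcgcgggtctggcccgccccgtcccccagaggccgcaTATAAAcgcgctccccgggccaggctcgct
EGR1, chr5:138465229-138465478, plus strand: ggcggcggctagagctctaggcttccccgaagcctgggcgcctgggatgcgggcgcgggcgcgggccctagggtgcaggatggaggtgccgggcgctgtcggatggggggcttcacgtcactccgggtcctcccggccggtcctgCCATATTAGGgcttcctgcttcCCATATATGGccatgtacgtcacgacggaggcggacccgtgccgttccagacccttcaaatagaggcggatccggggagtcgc
JUND, chr19:18281623-18281872, minus strand: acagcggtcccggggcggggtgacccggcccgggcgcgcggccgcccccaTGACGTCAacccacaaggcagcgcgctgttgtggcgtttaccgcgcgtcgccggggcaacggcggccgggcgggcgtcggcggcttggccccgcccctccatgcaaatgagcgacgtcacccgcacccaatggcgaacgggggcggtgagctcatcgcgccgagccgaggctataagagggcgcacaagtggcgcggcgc
These matches are a description of the sequence and were not tested for factor binding. Only these letter patterns within the 250 bases were counted, so that elements further upstream or variants of them would be missed.

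The table held between 24958386 and 34313637 counts per library as deposited. Expression is given as CPM, counts brought to a common library size after TMM scaling, and a gene is called where the adjusted p of edgeR's quasi-likelihood test (Benjamini-Hochberg over the 16891 genes) was under 0.05. The FDX2 row held 5, 2 and 6 counts in the 20% O2 + Doxy libraries, 9, 13 and 4 in the 20% O2 wo Doxy libraries, 2, 4 and 12 in the 3% O2 + Doxy libraries and 7, 7 and 5 in the 3% O2 wo Doxy libraries, too few to test or to check the labels. Of 8 epithelial and ovarian markers, KRT7 and KRT18 were abundant (condition means from 387 to 577 CPM) and fell with FDX2 loss at 20% O2, by 0.40 and 0.55 on the log2 scale (adjusted p = 0.014 and 0.0043). KRT8 and PAX8 were not called there. Without Doxy, KRT8, PAX8 and KRT18 were higher at 3% than at 20% O2 (0.82, 0.79 and 0.42, adjusted p = 0.0064, 0.0064 and 0.025). With Doxy, PAX8 was higher at 3% O2 as well (0.86, adjusted p = 0.019). EPCAM had at most 3 and KRT19 at most 2 counts per library, and MUC16 had none. WT1 did not pass the filter. The mesenchymal marker VIM fell by 0.49 at 20% O2 (adjusted p = 0.0022), where FN1 and CDH2 rose by 0.36 and 0.29 (adjusted p = 0.0012 and 0.0046). Of 3 endothelial markers, PECAM1 and VWF had at most 6 counts per library, whereas CDH5 had condition means of 24.7 to 45.1 CPM and rose with FDX2 loss at 3% O2 (0.49, adjusted p = 0.031). The part of these markers in the results was not tested. The 5 blood cell markers summed to at most 0.322 CPM per library. In these bulk libraries, fewer cells of a type and less RNA per cell cannot be told apart.

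The 10 members differed widely in level. Per kilobase of exon, FOSL1 was the most abundant, with condition means from 306 to 384 CPM per kb, followed by JUN at 88.2 to 129 and MYC at 45.4 to 52.0 CPM per kb. DUSP1 lay between 27.1 and 74.6, IER3 between 26.2 and 41.7 and FOSL2 between 18.6 and 22.7 CPM per kb. JUNB (7.28 to 11.1), EGR1 (5.85 to 7.52) and JUND (5.66 to 7.41 CPM per kb) overlapped one another, and FOS, with 0.492 to 0.590 CPM per kb, was by far the lowest. FOS rested on 32 to 79 counts per library.

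**Figure D1:**
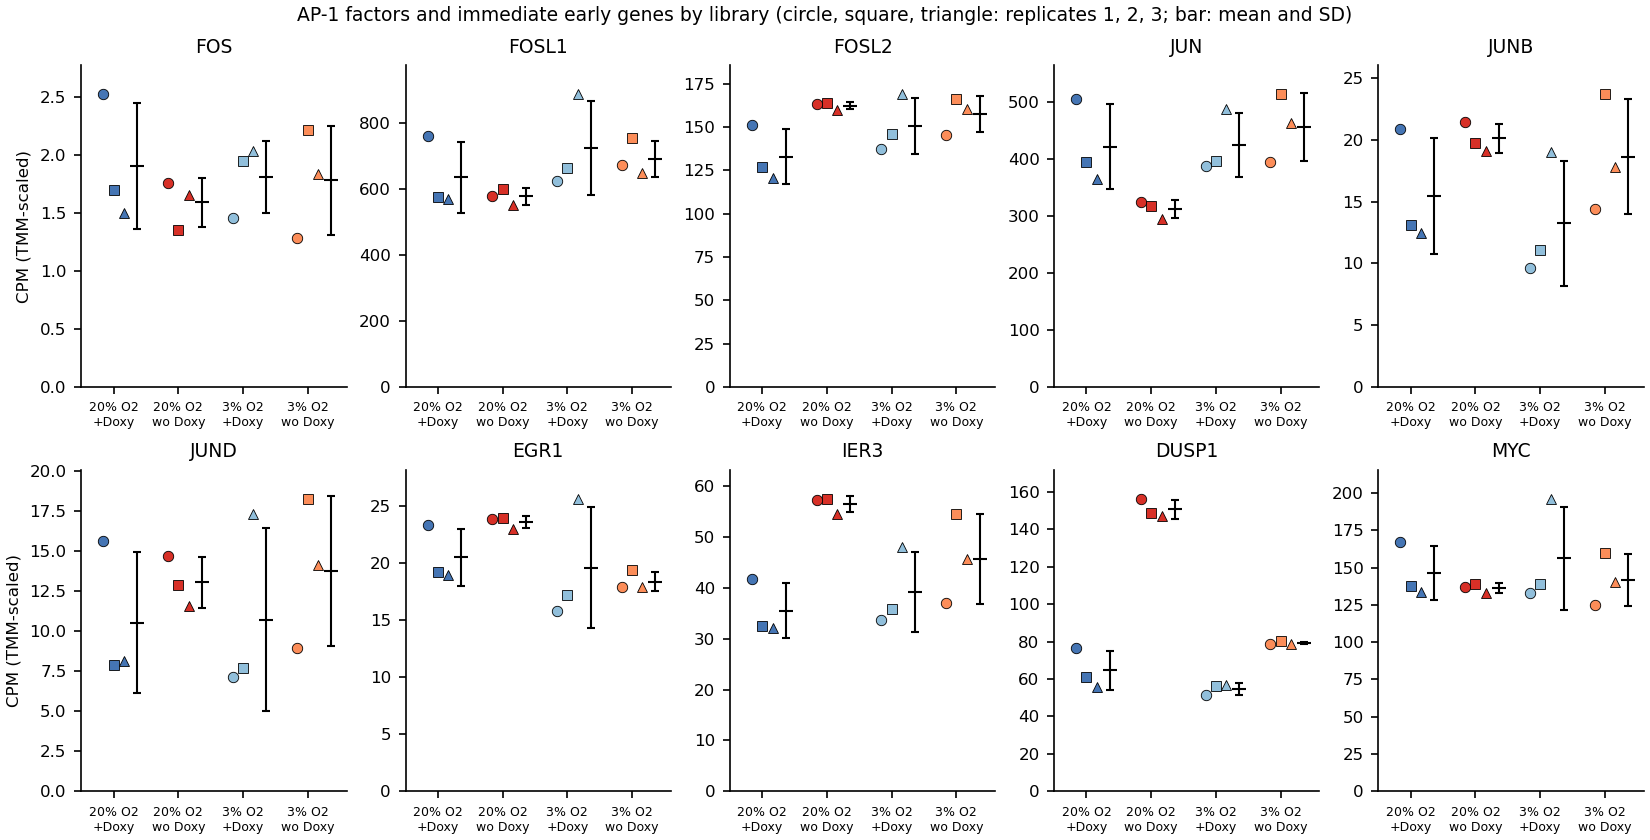
Expression of the 10 genes in each library, in TMM-scaled CPM on axes that start at 0, with circles, squares and triangles for replicates 1, 2 and 3 and bars for the mean and SD of the 3 replicates of each condition. The 3 DUSP1 values at 20% O2 wo Doxy, 147 to 156 CPM, lie above all others, and in most panels 1 library of the 20% O2 + Doxy, 3% O2 + Doxy and 3% O2 wo Doxy conditions stands above its 2 companions.

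The same library was the highest of its condition for all 10 members in 3 conditions: replicate 1 of 20% O2 + Doxy, replicate 3 of 3% O2 + Doxy and replicate 2 of 3% O2 wo Doxy. The median deviation of the 10 genes from their condition mean was 0.26, 0.31 and 0.18 on the log2 scale in these libraries. In the same libraries the 10% of genes richest in GC lay 0.34, 0.30 and 0.20 above their condition means and the 10% poorest in GC lay 0.15, 0.16 and 0.07 below. The members are GC-rich: their transcripts ranged from the 66.0th (FOSL2) to the 99.7th percentile (JUND) of GC content among the genes tested. When each library's trend with GC content was taken out, the median SD of the members within conditions went from 0.20 to 0.09 (log2), against 0.16 to 0.11 for all genes tested. The results are therefore given for all 12 libraries first, and then with GC content taken out and with these 3 libraries left out. Both alternatives were chosen after the data were seen, leaving out the most deviant replicate reduces the spread by its construction, and taking out the trend also removes any part of it that differs between conditions.

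**Figure D2:**
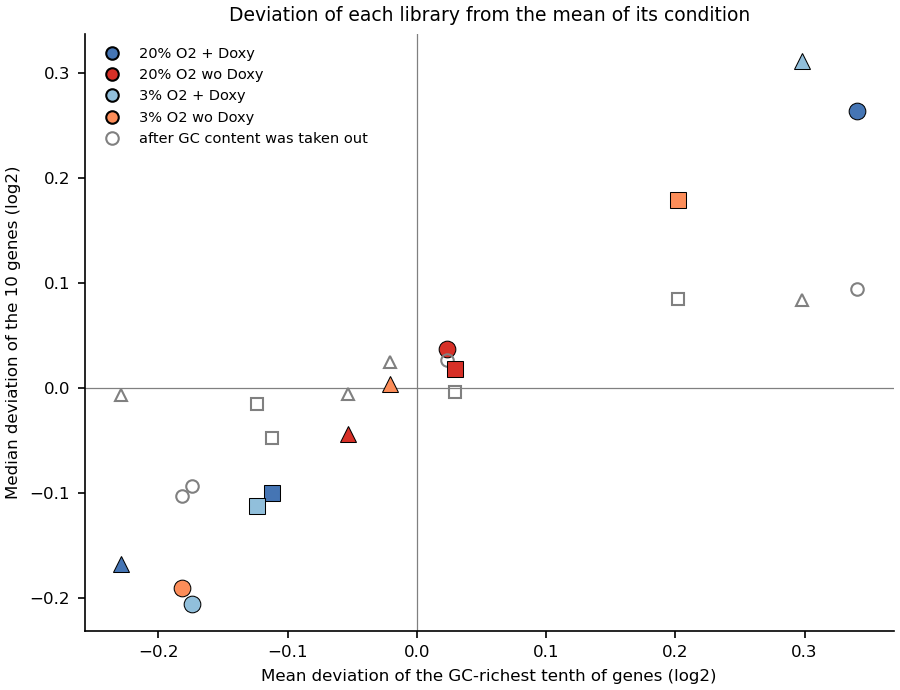
Median deviation of the 10 genes in each library from the mean of their condition (log2 CPM, vertical axis) against the mean deviation of the 10% of genes with the highest GC content (log2, horizontal axis), coloured by condition, with grey open symbols for the same libraries after GC content was taken out. The 3 libraries at the right, at 0.20 to 0.34 on the horizontal axis, have the 3 highest member deviations, which shrink to between 0.08 and 0.09 after the correction.

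At 20% O2, FDX2 loss raised DUSP1, IER3 and FOSL2 and lowered JUN, whereas FOS, FOSL1, JUNB, JUND, EGR1 and MYC were not called. The 4 called members compare with 35.3% of all genes tested in this comparison, 17.6% called higher and 17.7% lower, so that the share of the 10 members called was near the background. Their median log2 fold change was 0.25, beside 0.01 over all genes tested. With GC content taken out 7 members were called, with 46.7% of all genes, and with the 3 libraries left out 7 were called, with 42.5% of all genes. JUNB, JUND and EGR1, all higher, were the members added in both. At 3% O2, DUSP1 alone was called, with 7.31% of all genes, 4.2% higher and 3.11% lower. There, the median of the 10 members was 0.08 and that of all genes 0.04 on the log2 scale. Taking GC content out added JUNB (19.5% of all genes called), as did leaving out the 3 libraries (15.2% called).

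**Figure D3:**
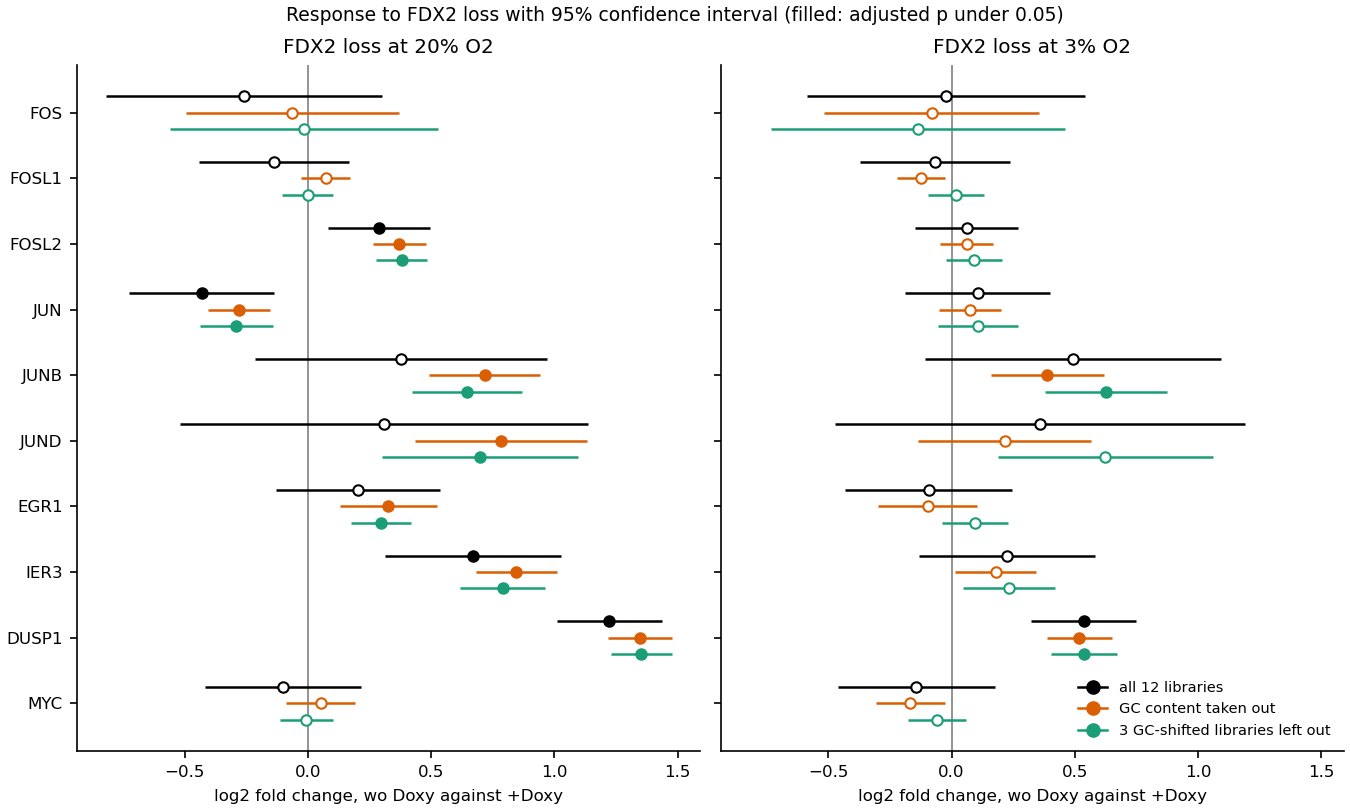
Log2 fold change of each gene after FDX2 loss (wo Doxy against +Doxy, horizontal axis) at 20% O2 and at 3% O2, with 95% confidence intervals, for all 12 libraries, with GC content taken out and with the 3 GC-shifted libraries left out; filled symbols have an adjusted p under 0.05. DUSP1 lies furthest to the right at 20% O2, at 1.22 to 1.35 in the 3 fits, and JUN is the member called lower.

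DUSP1 showed the largest response of the 10. It is a protein-coding gene on chromosome 5 (GRCh38, 172768090 to 172771195, minus strand). At 20% O2 its 3 libraries with Doxy read 76.5, 61.2 and 55.9 CPM, and the 3 without Doxy read 156, 149 and 147 CPM. The FDX2-deficient libraries all lay well above the proficient ones, a log2 fold change of 1.22 (SE 0.096, 95% confidence interval 1.01 to 1.44, edgeR adjusted p = 4.76e-06) or 2.33-fold. At 3% O2 the libraries with Doxy read 51.3, 56.0 and 56.7 CPM and those without read 78.9, 80.1 and 78.7 CPM. The groups again did not overlap, but the rise was smaller, 0.54 on the log2 scale (SE 0.096, interval 0.32 to 0.75, edgeR adjusted p = 0.0080). The difference between the responses was itself called, at -0.69 (SE 0.14, interval -0.98 to -0.39, edgeR adjusted p = 0.013), and all 20 alternatives of processing or left-out libraries kept it called, between -0.83 and -0.59. DUSP1 was the 1 member called in that test, in which 7.29% of all genes were called.

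The oxygen comparisons of DUSP1 share their libraries with these responses. Without Doxy, DUSP1 was lower at 3% O2 than at 20% O2 by a log2 difference of -0.93 (SE 0.096, interval -1.14 to -0.72, edgeR adjusted p = 9.51e-05). With Doxy the values overlapped, at -0.24 (interval -0.45 to -0.03, adjusted p = 0.30), and it was called there with GC content taken out (-0.26, adjusted p = 0.024). In order of mean level, 3% O2 + Doxy stood lowest at 54.6 ± 2.95 CPM (SD, n = 3), followed by 20% O2 + Doxy at 64.6 ± 10.7, 3% O2 wo Doxy at 79.2 ± 0.746 and 20% O2 wo Doxy at 151 ± 4.98 CPM. Only the first neighbours in this order overlapped. DUSP1 was also the member whose condition means spanned the most, 1.46 on the log2 scale, against 0.17 to 0.68 for the other 9.

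The pattern of DUSP1 over the 12 libraries was most like that of HMOX1, GRB10 and MDK among 10764 genes of at least 5 CPM on average. Likeness was measured as the root mean square difference of centred log2 CPM, which was 0.12, 0.12 and 0.13. HMOX1, the stress-induced heme oxygenase, read 8.29, 18.2, 7.40 and 10.7 CPM on average at 20% O2 + Doxy, 20% O2 wo Doxy, 3% O2 + Doxy and 3% O2 wo Doxy. GRB10, an adaptor of insulin receptor signalling, read 22.5, 49.3, 21.7 and 29.8 CPM, and MDK, which encodes the growth factor midkine, read 40.3, 89.0, 35.1 and 57.0 CPM in the same order. These 3 genes were chosen for their likeness, which is a description and not a test.

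Within the Fos family, FOSL1 made up nearly all of the mRNA and FOSL2 was the member called. FOSL2 (chromosome 2, 28392448 to 28417312, plus strand) read 151, 127 and 121 CPM at 20% O2 + Doxy and 163, 164 and 160 CPM at 20% O2 wo Doxy. The groups did not overlap, at a log2 fold change of 0.29 (SE 0.095, interval 0.08 to 0.50, edgeR adjusted p = 0.034). The rise was 0.37 with GC content taken out (adjusted p = 6.36e-05) and 0.38 with the 3 libraries left out (adjusted p = 2.08e-04). Without replicate 2 or 3 of 20% O2 + Doxy or any replicate of 20% O2 wo Doxy the call was lost, with adjusted p from 0.059 to 0.13, as it was with no filter on low counts (adjusted p = 0.060). At 3% O2, FOSL2 read 138, 146 and 169 CPM with Doxy and 146, 166 and 160 CPM without, overlapping groups at 0.06 (interval -0.15 to 0.27, adjusted p = 0.74). The difference between the responses of FOSL2, -0.23 (adjusted p = 0.34), was called with GC content taken out (-0.31, adjusted p = 0.0086) and with the 3 libraries left out (-0.29, adjusted p = 0.023).

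FOSL1, which encodes the FRA1 subunit, read 760, 576 and 570 CPM at 20% O2 + Doxy, and 579, 601 and 552 CPM at 20% O2 wo Doxy. The 3% O2 libraries read 624, 662 and 886 CPM with Doxy and 672, 753 and 647 CPM without. The groups overlapped at both oxygen levels, with log2 fold changes of -0.14 (interval -0.44 to 0.17, adjusted p = 0.48) and -0.07 (interval -0.37 to 0.24, adjusted p = 0.81), and the first was 0.07 with GC content taken out. Without Doxy the 3% O2 libraries all lay above the 20% O2 ones, by 0.26 (interval -0.05 to 0.56, adjusted p = 0.19), a difference that was called with the 3 libraries left out (0.18, adjusted p = 0.014) and stood at -0.02 with GC content taken out (adjusted p = 0.74).

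FOS, the founding member of the family, read 2.53, 1.70 and 1.50 CPM at 20% O2 + Doxy and 1.77, 1.36 and 1.66 CPM at 20% O2 wo Doxy. At 3% O2 it read 1.46, 1.95 and 2.04 CPM with Doxy and 1.29, 2.22 and 1.84 CPM without. The groups overlapped in each comparison. At these counts, intervals such as -0.82 to 0.30 for FDX2 loss at 20% O2 (log2 fold change -0.26, adjusted p = 0.47) are wide beside those of the other Fos genes.

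As a share of counts per kb of exon over FOS, FOSB, FOSL1 and FOSL2, FOSL1 held 94.4% ± 0.272 (SD, n = 3) at 20% O2 + Doxy and 92.4% ± 0.182 at 20% O2 wo Doxy. Its share was 94.5% ± 0.434 at 3% O2 + Doxy and 93.9% ± 0.412 at 3% O2 wo Doxy. At 20% O2 without Doxy, the shares of FOSL2 (6.86% ± 0.191, against 5.24% ± 0.257 with Doxy) and of FOSB (0.617% ± 0.0415, against 0.206% ± 0.0371) were larger by more than the spread between replicates. FOS stayed between 0.139% and 0.163% of the family in the 4 conditions. Exon length is that of all annotated exons, so that shares would differ for cells that use shorter isoforms. These shares are a description, with no test.

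Within the Jun family, JUN was the abundant member and moved opposite to DUSP1 at 20% O2. JUN (chromosome 1, 58780788 to 58784327, minus strand) encodes c-Jun, the transactivating partner in most AP-1 dimers and a substrate of JNK. It read 505, 393 and 365 CPM at 20% O2 + Doxy and 325, 318 and 294 CPM at 20% O2 wo Doxy. The FDX2-deficient libraries lay below all proficient ones, a log2 fold change of -0.43 (SE 0.13, interval -0.73 to -0.14, edgeR adjusted p = 0.027). JUN was -0.28 with GC content taken out (adjusted p = 0.0018) and -0.29 with the 3 libraries left out (adjusted p = 0.0064). The call was lost without replicate 1 of 20% O2 + Doxy (adjusted p = 0.074) and without replicate 3 of 20% O2 wo Doxy (adjusted p = 0.065).

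At 3% O2, JUN did not follow. It read 388, 396 and 488 CPM with Doxy and 393, 512 and 462 CPM without, groups that overlapped at 0.11 (interval -0.19 to 0.40, adjusted p = 0.68). Without Doxy it was higher at 3% than at 20% O2 by 0.55 (SE 0.13, interval 0.25 to 0.84, edgeR adjusted p = 0.013), 0.34 with GC content taken out. This call was lost without replicate 3 of 20% O2 wo Doxy (adjusted p = 0.050) or replicate 2 of 3% O2 wo Doxy (adjusted p = 0.058). The difference between its responses, 0.54 (interval 0.12 to 0.95, unadjusted p = 0.016, adjusted p = 0.12), was not called by edgeR over the 12 libraries. DESeq2 called this difference over the same libraries. In edgeR it was called with GC content taken out (0.36, adjusted p = 0.010) and with the 3 libraries left out (0.40, adjusted p = 0.027). It was also called without replicate 3 of 3% O2 + Doxy (0.65, adjusted p = 0.044).

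JUNB and JUND, the Jun proteins that often restrain growth where JUN promotes it, were lower in level and more scattered. JUNB read 20.9, 13.1 and 12.5 CPM at 20% O2 + Doxy and 21.5, 19.8 and 19.1 CPM at 20% O2 wo Doxy. Replicate 1 with Doxy reached into the range of the FDX2-deficient libraries, and the log2 fold change of 0.38 (interval -0.21 to 0.97, adjusted p = 0.31) was not called. It was 0.72 with GC content taken out (adjusted p = 1.28e-04) and 0.64 with the 3 libraries left out (adjusted p = 7.96e-04). At 3% O2, JUNB read 9.62, 11.1 and 19.0 CPM with Doxy and 14.5, 23.7 and 17.8 CPM without. That difference of 0.49 (interval -0.11 to 1.09, adjusted p = 0.31) was 0.39 with GC content taken out (adjusted p = 0.023) and 0.63 with the 3 libraries left out (adjusted p = 0.0076). Of the annotated exonic bases of JUNB, 14.2% also lie in exons of HOOK2 on the other strand, and whether the counting used strand is not given in the sources used here.

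JUND has the highest GC content of the 10, at 69.7%, against a median of 48.4% over the genes tested. It read 15.6, 7.86 and 8.11 CPM at 20% O2 + Doxy and 14.7, 12.9 and 11.6 CPM at 20% O2 wo Doxy, overlapping through replicate 1 alone. At 3% O2 it read 7.12, 7.72 and 17.4 CPM with Doxy, and 8.94, 18.3 and 14.2 CPM without. The log2 fold change at 20% O2 was 0.31 (interval -0.52 to 1.14, adjusted p = 0.57), with 0.78 after GC content was taken out (adjusted p = 0.0017) and 0.70 with the 3 libraries left out (adjusted p = 0.011). The 3% O2 value was 0.36 (interval -0.47 to 1.19, adjusted p = 0.61), 0.22 and 0.62 in the same order, none of them called.

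Per kb of exon, JUN held 89.6% ± 1.56 (SD, n = 3) of the Jun-family mRNA at 20% O2 + Doxy and 83.0% ± 0.599 at 20% O2 wo Doxy. Its share at 3% O2 was 90.5% ± 2.64 with Doxy and 88.1% ± 1.68 without. JUNB took 10.4% ± 0.261 at 20% O2 wo Doxy, against 6.31% ± 0.657 with Doxy, and JUND took 6.58% ± 0.453 against 4.14% ± 0.905. At 20% O2 the JUN share of the FDX2-deficient cells therefore lay outside the spread between replicates of the proficient cells, while at 3% O2 the means differed by less than their SDs added together.

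**Figure D4:**
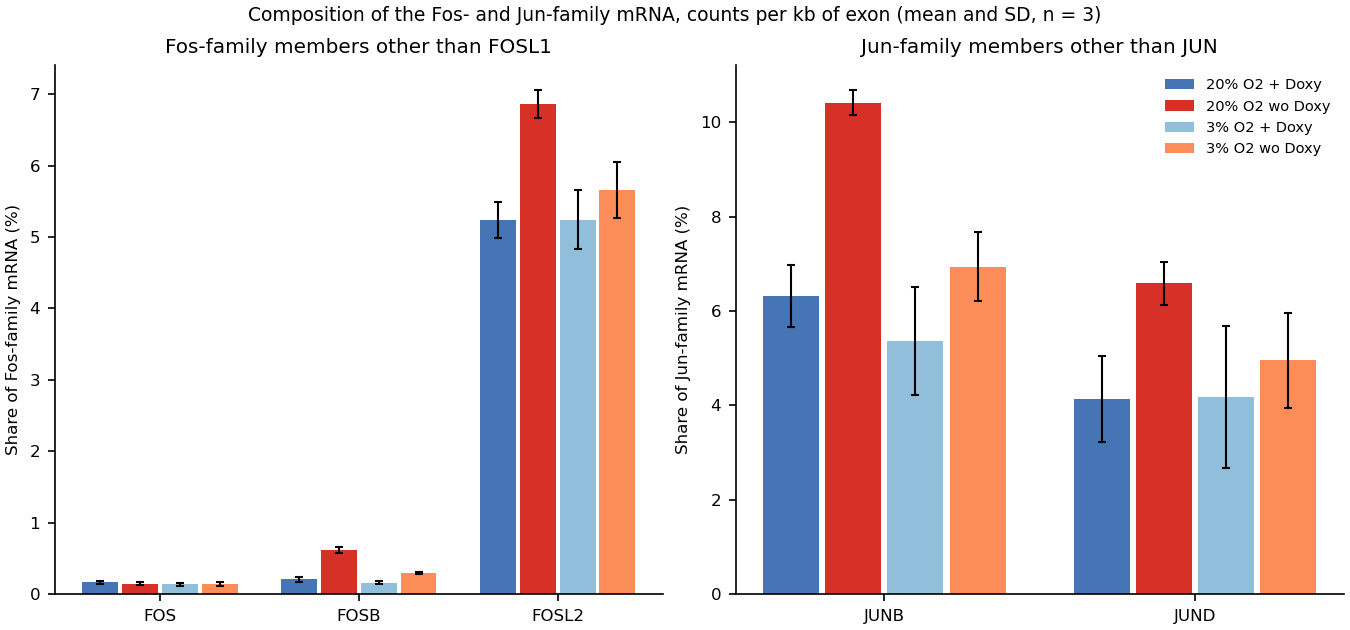
Shares of Fos-family mRNA (FOS, FOSB and FOSL2, with FOSL1 making up the rest) and of Jun-family mRNA (JUNB and JUND, with JUN making up the rest) in percent, from counts per kb of exon, as means with SD over 3 libraries of each condition. FOSL2, FOSB, JUNB and JUND reach their highest shares at 20% O2 wo Doxy, 6.86%, 0.617%, 10.4% and 6.58%.

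Among the other members, IER3 responded and EGR1 and MYC were not called. IER3 (chromosome 6, 30743199 to 30744554, minus strand) read 41.7, 32.6 and 32.2 CPM at 20% O2 + Doxy and 57.3, 57.6 and 54.6 CPM at 20% O2 wo Doxy. All FDX2-deficient libraries were higher, by 0.67 on the log2 scale (SE 0.16, interval 0.31 to 1.03, edgeR adjusted p = 0.0082) or 1.59-fold, and the call was kept under all 17 alternatives, from 0.60 to 0.85. At 3% O2 the groups overlapped, with 33.6, 35.8 and 48.1 CPM with Doxy and 37.0, 54.6 and 45.7 CPM without, a difference of 0.22 (interval -0.13 to 0.58, adjusted p = 0.44). The difference of its responses, -0.45 (interval -0.95 to 0.06, adjusted p = 0.27), was called with GC content taken out (-0.67, adjusted p = 0.0012) and with the 3 libraries left out (-0.56, adjusted p = 0.013). Between oxygen levels without Doxy, IER3 stood at -0.30 (adjusted p = 0.19). It was called there with GC content taken out (-0.55, adjusted p = 1.56e-04) and with the 3 libraries left out (-0.46, adjusted p = 0.0017). Exons of the antisense gene IER3-AS1 cover 26.5% of its exonic bases, so that reads of the pair cannot be told apart without strand.

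EGR1, the member with CArG boxes in its promoter window, read 23.3, 19.2 and 18.9 CPM at 20% O2 + Doxy and 23.9, 23.9 and 22.9 CPM at 20% O2 wo Doxy. Replicate 1 with Doxy overlapped the FDX2-deficient libraries, and the difference of 0.20 (interval -0.13 to 0.54, adjusted p = 0.34) was 0.33 with GC content taken out (adjusted p = 0.010) and 0.30 with the 3 libraries left out (adjusted p = 0.0020). At 3% O2 it read 15.8, 17.2 and 25.6 CPM with Doxy and 17.9, 19.4 and 17.9 CPM without, at -0.09 (interval -0.43 to 0.25, adjusted p = 0.76). Without Doxy, its 3% O2 libraries all lay below those at 20% O2, by -0.36 (interval -0.70 to -0.02, adjusted p = 0.11). This difference was called with GC content taken out (-0.53, adjusted p = 9.43e-04) and with the 3 libraries left out (-0.41, adjusted p = 5.87e-04). In fits to the 6 libraries of these conditions alone EGR1 was called both without the replicate number as a block (-0.37, adjusted p = 0.0033) and with it (adjusted p = 0.0094), while the block over all 12 libraries did not call it (adjusted p = 0.15).

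MYC read 167, 138 and 134 CPM at 20% O2 + Doxy and 137, 139 and 133 CPM at 20% O2 wo Doxy. At 3% O2 it read 133, 139 and 196 CPM with Doxy, and 125, 160 and 140 CPM without. All conditions overlapped, and the log2 fold changes after FDX2 loss were -0.10 (interval -0.42 to 0.22, adjusted p = 0.63) at 20% O2 and -0.14 (interval -0.46 to 0.17, adjusted p = 0.59) at 3% O2. MYC was not called in any of the 5 comparisons, nor with GC content taken out, where the value at 20% O2 was 0.05.

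Between oxygen levels with Doxy, no member was called by edgeR, with 2.02% of all genes called and DUSP1 the 1 member under an unadjusted p of 0.05. DESeq2 also called none. FOSL1 (0.17, adjusted p = 0.038) and DUSP1 were called with GC content taken out (7.76% of all genes), and none with the 3 libraries left out (3.03%). Without Doxy, DUSP1 (lower at 3% O2) and JUN (higher) were called, with 25.8% of all genes, 13.9% higher and 11.9% lower. In fits to those 6 libraries alone FOSL1 (0.25, adjusted p = 0.027) and EGR1 joined them, with 34.2% of all genes called, and the same 4 members were called there with the replicate block (31.1% of all genes). The replicate block over all 12 libraries called DUSP1 and JUN. With GC content taken out 7 members were called (34.1% of all genes), 1 higher (JUN) and 6 lower (FOSL2, JUNB, JUND, EGR1, IER3 and DUSP1). With the 3 libraries left out 6 were called (33.5%), 2 higher (FOSL1 and JUN) and 4 lower (JUNB, EGR1, IER3 and DUSP1). In the test of the difference of responses, 5 members were called with GC content taken out (18.9% of all genes) and 4 with the 3 libraries left out (15%), DUSP1 among them in both.

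The other genes of the pathway came from lists drawn from general knowledge, and their counts stand beside the 17.6% of all genes called higher and 17.7% called lower at 20% O2, and 4.2% and 3.11% at 3% O2. Of 13 further AP-1 and small Maf partners, 10 were tested and 6 rose with FDX2 loss at 20% O2, none fell, and the median log2 fold change was 0.34. The log2 fold changes of the 10 ran from -0.02 to 6.91, the upper end from a gene other than those named below. Of the 13 genes, 2 had no counts in any 20% O2 + Doxy library and 1 had none at 20% O2 wo Doxy. The value of 6.91 may therefore rest on a baseline without counts, and its size is not interpreted. FOSB, the fourth Fos protein, rose from 3.99 ± 0.211 to 11.4 ± 1.14 CPM (SD, n = 3), 1.51 on the log2 scale (SE 0.10, edgeR adjusted p = 1.68e-06), and the small Maf gene MAFG rose by 0.42 (adjusted p = 0.0039). ATF3, a stress-induced partner of Jun proteins that fell below the mean of 5 CPM required of named genes and was picked after its values were seen, rose from 2.06 ± 0.481 to 10.1 ± 0.416 CPM (2.29, adjusted p = 1.86e-06). At 3% O2, 3 of the 10 rose, FOSB by 0.80 (adjusted p = 0.0013), MAFK by 0.54 (adjusted p = 0.0099) and ATF3 by 0.65 (adjusted p = 0.035). The responses of FOSB and ATF3 differed between oxygen levels, by -0.70 (adjusted p = 0.016) and -1.65 (adjusted p = 0.0020).

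Of 26 other immediate early genes 22 were tested at 20% O2, where 6 rose and 3 fell, with a median of 0.17. GADD45B, a growth arrest gene, rose by 0.64 (SE 0.11, edgeR adjusted p = 8.09e-04), while KLF2 fell by 1.08 (adjusted p = 0.0093), CCN2, a matricellular gene, fell by 0.48 (adjusted p = 1.30e-04) and MCL1, a survival gene, fell by 0.37 (adjusted p = 9.19e-05). At 3% O2, GADD45B (0.54, adjusted p = 0.012) and SGK1 (0.26, adjusted p = 0.0045) rose and none fell. With GC content taken out, 12 rose and 6 fell at 20% O2, where 46.7% of all genes were called in either direction. At 3% O2, 7 rose and 1 fell in that fit, where 19.5% of all genes were called.

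Of 16 ERK output genes 3 rose and 1 fell at 20% O2, with a median of -0.01, so that the share that rose was near the 17.6% of all genes. None was called at 3% O2 by edgeR. With GC content taken out 5 rose and 2 fell there, where 19.5% of all genes were called. The ERK phosphatases DUSP4 and DUSP6 rose by 0.62 (SE 0.12, adjusted p = 0.0022) and 0.32 (adjusted p = 0.0027), PHLDA1 rose by 0.20 (adjusted p = 0.035), and SPRY2, a feedback inhibitor of receptor tyrosine kinases, fell by 0.22 (adjusted p = 0.0070). Of the 4 other MAP kinase phosphatases tested, 2 rose and 1 fell at 20% O2, and 2 rose and none fell at 3% O2. DUSP10, which acts on JNK and p38, rose from 8.02 ± 0.0817 to 27.7 ± 0.390 CPM at 20% O2 (1.79, SE 0.077, adjusted p = 1.15e-07). At 3% O2, DUSP10 rose by 0.55 (adjusted p = 0.0018) and DUSP16 by 0.30 (adjusted p = 0.039). With Doxy, DUSP16 was lower at 3% than at 20% O2 (-0.54, adjusted p = 0.0025). DUSP7, which acts on ERK, fell by 0.78 at 20% O2 (adjusted p = 0.0012). Like that of DUSP1, the response of DUSP10 differed between oxygen levels, by -1.23 (adjusted p = 2.20e-04). With Doxy, however, DUSP10 was already higher at 3% than at 20% O2 (0.47, adjusted p = 0.0083), where DUSP1 was not called. Among 19 MAP kinases and upstream factors 3 rose, near the 17.6% of all genes, and 6 fell at 20% O2, against 17.7% of all genes: MAPK8, the gene of JNK1, fell by 0.48 (adjusted p = 1.71e-04) and MAP2K4, a kinase that activates JNK, fell by 0.47 (adjusted p = 1.48e-04), while MAPK13, the gene of p38 delta, rose by 0.91 (adjusted p = 4.92e-04). All 3 were called in the same direction at 3% O2, at -0.29, -0.29 and 0.51. With Doxy, MAPK13 was also higher at 3% than at 20% O2 (0.79, edgeR adjusted p = 0.012).

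Genes known as AP-1 targets mostly rose at 20% O2, where 11 of the 18 tested rose and 1 fell, with a median of 0.80, against 17.6% and 17.7% of all genes. At 3% O2 5 rose and none fell, with a median of 0.19. MMP3, the stromelysin gene, rose from 75.5 ± 3.20 to 415 ± 17.7 CPM at 20% O2 (2.46, SE 0.056, edgeR adjusted p = 1.49e-09). IL11, an interleukin gene, rose by 2.13 (adjusted p = 4.83e-06), and EREG, the gene of an EGF receptor ligand, rose by 1.65 (adjusted p = 2.89e-06). Several of these genes were known from earlier results of these data when the list was drawn, so that the count is not independent evidence of a direction. The difference between the responses was called for 7 of the 18, all smaller at 3% O2, in a test that called 7.29% of all genes. MMP3 stood at -0.88 (adjusted p = 2.20e-04) and IL11 at -1.89 (adjusted p = 0.0013).

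Around MYC, whose own level was not called, 3 of 9 tested partners and antagonists rose at 20% O2 and 1 fell. MXI1 and MXD1, repressors that compete with MYC for its partner MAX, rose from 11.1 ± 0.168 to 21.8 ± 1.12 CPM and from 7.06 ± 0.373 to 13.9 ± 0.836 CPM (0.98 and 0.97, edgeR adjusted p = 1.46e-06 and 5.93e-06). None of the 9 was called at 3% O2 over the 12 libraries (2 rose with GC content taken out, where 19.5% of all genes were called). The difference between the responses of MXD1 was -0.97 (adjusted p = 9.27e-04). Of 18 tested MYC target genes 12 fell and 1 rose at 20% O2, with a median of -0.42, and 6 fell and none rose at 3% O2. The ribosome biogenesis genes NOP56 and NCL fell by 0.65 (adjusted p = 2.24e-05) and 0.61 (adjusted p = 9.56e-06). The 8 heat shock genes, a stress response that does not run through AP-1, all fell at 20% O2, with a median of -0.82, and 3 of them fell at 3% O2. HSPA8, a constitutive chaperone gene, fell by 0.97 and 0.39 in the 2 comparisons.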

How the data were processed

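Poly(A) RNA of 12 libraries was sequenced. Per the submitters' processing notes in the labels, the authors used STAR for alignment to GRCh38 and featureCounts for read counting by gene, and these notes also name DESeq2. The versions of STAR and featureCounts, the annotation and the strand setting are not given in the sources used here. The deposited values are whole-number counts, which were used as deposited. All 58735 identifiers are in GENCODE release 29, which gave symbols, coordinates and exon lengths. For replicates 1 and 2 of 20% O2 + Doxy, of which replicate 1 is GC-shifted, a paired read file was lost in transfer; their deposited counts were used.

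Genes were kept with edgeR's filterByExpr (minimum count of 10, minimum total of 15). Counts were scaled by TMM and fitted over all 12 libraries with the quasi-likelihood test of edgeR 4.0.16 in R 4.3.3, with adjusted p-values (Benjamini-Hochberg) over the 16891 genes. Intervals are 95% intervals of the log2 fold change. DESeq2 1.42.0 was an alternative. The GC correction took a lowess trend (span 0.3) of log2 CPM against transcript GC content out of each library as an offset. In simulated counts for FDX2 loss at 20% O2, with 16714 genes tested, 119 of 200 genes changed by 2-fold were recovered with 4 false calls.

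The members and lists were chosen with earlier results of these data known. Named list genes were at most the 4 largest called changes of each list with a mean of at least 5 CPM. A part of these is described, and 1 gene counted in its list is not reported here. The series calls the replicates biological without saying whether they were separate cultures; p-values measure the spread between these libraries, which may be technical. In a correlation check chosen here, deviations of same-numbered libraries of the 2 wo Doxy conditions correlated at 0.19 to 0.50, and those of different-numbered libraries at -0.47 to 0.23. The ranges overlapped, so that the check does not settle whether replicate numbers mark pairs, and the labels state no pairing.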

Additional observations from a re-analysis of the deposited data

Results flagged for a closer look

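A test of the difference itself (edgeR's quasi-likelihood test, the log2 response to FDX2 loss at 3% O2 minus that at 20% O2, with adjusted p-values) called 7.29% of all genes tested. The genes below are given because they were called in it: the 1 called member, called genes among the largest changes of each list, and ATF3, picked after its values were seen.

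DUSP1 differed by -0.69, rising in 3 of 3 FDX2-deficient libraries above all proficient ones at both oxygen levels. Among its partners in AP-1, FOSB differed by -0.70, ATF3 by -1.65 and ATF7 by -0.33. The MAP kinase phosphatase DUSP10 differed by -1.23 and ELK4, an ERK target that binds with serum response factor, by -0.66. Among immediate early genes KLF10 differed by -0.45, CCN2 by 0.54 and MCL1 by 0.29.

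Of the AP-1 target genes IL11 differed by -1.89, CXCL8 by -1.15 and MMP3 by -0.88. Around MYC, the antagonists MXD1, MXI1 and MGA differed by -0.97, -0.77 and -0.67. The MYC target genes NOP56, NPM1 and NCL differed by 0.47, 0.42 and 0.37, and TFRC, the transferrin receptor gene, by -0.61. The heat shock genes HSPA8, HSP90AA1, HSPH1 and DNAJB1 differed by 0.58, 0.49, 0.48 and 0.40. Of the genes in this section, DUSP10 (0.47), MXI1 (0.46) and TFRC (0.89) were called higher and MMP3 (-0.40) lower at 3% than at 20% O2 with Doxy. Their differences of response therefore also hold a change in the proficient cells.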

How the results depend on the processing

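The calls of DUSP1 in the 4 comparisons that called it, and that of IER3 at 20% O2, were kept under every alternative run, except that of DUSP1 at 3% O2 with the replicate block over the 6 compared libraries (adjusted p = 0.17). The calls of FOSL2 and JUN were not, and were lost at 20% O2 with the replicate block over all libraries (adjusted p = 0.070 and 0.057). The cause of the changes below was not tested. FOS rested on 32 to 79 counts per library, the lowest of the 10 members. DESeq2 size factors and a minimum of 10 counts in every library changed no direction and no call of a member.

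Members called. For FDX2 loss at 20% O2, 7 were called with the GC correction, with or without the block and over all or only the 6 compared libraries, and with the 3 GC-shifted libraries left out, 2 with the replicate block over all libraries, and 2 to 3 without single libraries. For FDX2 loss at 3% O2, 2 were called with the GC correction, with or without the block, and with the 3 libraries left out, and 0 with the replicate block over 6 libraries, where 1 gene in all passed. For oxygen with Doxy, 2 were called with the GC correction and 1 with the block and the GC correction. For oxygen without Doxy, 7 were called with the GC correction and with the block and the GC correction over 6 libraries, 6 with the block and the GC correction over 12 libraries and with the 3 libraries left out, 4 over the 6 libraries with or without the replicate block, and 1 to 2 without single libraries. For the difference of responses, 2 were called by DESeq2, 5 with the GC correction, 4 with the block and the GC correction and with the 3 libraries left out, and 1 to 2 without single libraries.

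Genes called among all tested. FDX2 loss at 3% O2 gave 678 without a filter, 1944 by DESeq2, 676 with the replicate block, 3301 with the GC correction, 2864 with both, 218 over the 6 compared libraries, 563 over these with the block and the GC correction, 2610 with the 3 libraries left out and 581 to 1605 without single libraries. Oxygen with Doxy gave 629 by DESeq2, 218 with the replicate block, 1310 with the GC correction, 1011 with both, 128 over the 6 compared libraries, 12 over these with the block, 182 over these with the block and the GC correction, 520 with the 3 libraries left out and 190 to 388 without single libraries. Oxygen without Doxy gave 2321 to 4200 without single libraries. The difference of responses gave 672 without a filter, 1916 by DESeq2, 615 with the replicate block, 3186 with the GC correction, 2730 with both, 2568 with the 3 libraries left out and 520 to 2191 without single libraries.

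Changes of sign, none of them in a comparison that called the member over the 12 libraries. For FDX2 loss at 20% O2, the GC correction alone, with the block and with the block over 6 libraries gave FOSL1 0.072, 0.072 and 0.070 and MYC 0.052, 0.052 and 0.049. At 3% O2, leaving out the 3 libraries gave FOSL1 0.018 and EGR1 0.094. For oxygen with Doxy, JUN was -0.0059 without a filter, -0.011 with the GC correction with or without the block and -0.012 over 6 libraries with both, JUND was -0.0042 with the replicate block over 12 libraries, -0.020 over 6 and -0.11 with the 3 libraries left out, and FOS was 0.086 in the last. For oxygen without Doxy, the GC correction alone, with the block and with the block over 6 libraries gave FOS -0.094, -0.099 and -0.10, FOSL1 -0.022, -0.023 and -0.026, JUND -0.490, -0.494 and -0.489 (called lower, adjusted p = 0.033, 0.044 and 0.044) and MYC -0.158, -0.160 and -0.160, while leaving out the 3 libraries gave FOS -0.033, JUND -0.18 and MYC -0.052. For the difference of responses, the GC correction without and with the block gave FOS -0.018 and -0.018, FOSL1 -0.195 and -0.196, JUNB -0.328 and -0.323 and JUND -0.567 and -0.558, while leaving out the 3 libraries gave FOS -0.12, JUNB -0.017 and JUND -0.074.

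Leaving out each library in turn. At 3% O2 after FDX2 loss, FOS ran from -0.21 to 0.16, FOSL1 from -0.17 to 0.10, FOSL2 from -0.0036 to 0.15, EGR1 from -0.23 to 0.15 and MYC from -0.25 to 0.054. For oxygen with Doxy, FOS ran from -0.22 to 0.17, JUN from -0.11 to 0.15, JUNB from -0.59 to 0.040, JUND from -0.51 to 0.41, EGR1 from -0.31 to 0.067, IER3 from -0.035 to 0.26 and MYC from -0.10 to 0.20. Without Doxy, FOS ran from -0.020 to 0.34, FOSL2 from -0.084 to 0.0068, JUNB from -0.31 to 0.041, JUND from -0.17 to 0.31 and MYC from -0.041 to 0.14. For the difference of responses, FOS ran from -0.022 to 0.42, FOSL1 from -0.080 to 0.25, JUNB from -0.16 to 0.48, JUND from -0.35 to 0.59 and MYC from -0.15 to 0.16.

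Shares from counts not divided by length put FOSL1 at 82.0%, 76.7%, 82.1% and 80.6% and JUN at 94.3%, 90.4%, 94.8% and 93.4% in the order 20% O2 + Doxy, 20% O2 wo Doxy, 3% O2 + Doxy and 3% O2 wo Doxy. Only same-numbered libraries of the 2 wo Doxy conditions all correlated above 0.1, and the replicate block without the GC correction changed no other call of a member than those given here and in the results and that of JUNB, called for FDX2 loss at 20% O2 over the 6 compared libraries (0.41, adjusted p = 0.036).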
